A study of Gallus gallus with 6 samples.

Results

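The genes described here encode the nuclear-made parts of the mitochondrial respiratory chain, the ATP synthase and the mitochondrial ribosome, with a few proteins that assemble the chain or import proteins into the organelle. They were chosen by symbol alone, as every gene whose symbol, in the probe annotation or as now used, begins with NDUF, SDHA to SDHD, UQCR, COX, CYC, ATP5, MRPL, MRPS, TIMM or TOMM. This found 48 of the 2253 named genes, on 57 clones and 171 spots. There were 11 genes of complex I, 1 of complex II, 2 of complex III, 6 of complex IV, 7 of the ATP synthase, 10 of the large and 7 of the small mitoribosomal subunit, 2 assembly factors of complex IV and 2 import proteins. By their known roles 44 of these are subunits, while COX11, COX15, TIMM44 and TOMM22 are neither chain subunits nor mitoribosomal proteins. The search found no cytochrome c gene (symbols beginning with CYC) among the named genes, and the subunits encoded by mitochondrial DNA were not analysed here.

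The cells were chicken macrophages that the labels call PBL (peripheral blood lymphocyte) macrophages, left unstimulated or exposed to whole E. coli of strain XL10 or to lipopolysaccharide (LPS) from S.typh, with no genotype or age given in the labels. They were sampled after 1, 2, 4 and 8 h, and at 4 and 8 h the stimulus had been taken off after 2 h. Of 6 arrays, 5 compared a pair of RNA samples. Unstimulated cells were paired with E. coli after 1 h on one array (the E. coli 1 h array) and with LPS after 1 h on another (the LPS 1 h array). A further array held E. coli at 2 h and at 4 h (the E. coli time array). The last pairs set the bacteria against LPS at 4 h (the 4 h array) and at 8 h (the 8 h array). The remaining array had 1 channel, with the brightness of LPS 2 h. Unstimulated cells stood on both arrays of 1 h and E. coli 4 h on 2 arrays, so these pairs of arrays are not independent. Each pair had 1 array, so no comparison had a replicate or a test, and this limits the precision. In a bulk sample, fewer cells of a type and less RNA per cell cannot be told apart.

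The respiratory chain passes electrons from NADH (complex I) and succinate (complex II) through complex III and cytochrome c to oxygen (complex IV), and the proton gradient this builds drives the ATP synthase. Its subunits come from both genomes, and the mitoribosome translates those of the mitochondrial genome. In mouse macrophages LPS is known to shift energy supply from respiration towards glycolysis.

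Ratios below are log2 values minus the median of their array, with base 2 assumed. The numerator was not stated, so signs are those of the deposited values, and all of them turn on an array whose ratio is the inverse. Channel 1 held the stimulated sample on the E. coli 1 h array and the unstimulated sample on the LPS 1 h array. If the same channel was the numerator on both, equal signs on these arrays mean opposite directions of change. The SD after ± is taken across a gene's spots within 1 array, 3 per clone, and holds technical spread only. A gene is called past 2-fold when its ratio is at least 1 in size. Of 13 macrophage markers 11 were read, at brightness percentiles of 42.2 (FCER1G) to 97.9 (CYBB) at LPS 2 h. The brightness of CYBB, 5.26 ± 5.29, had an SD above its mean, as had that of CSF1R. Markers of other blood cells were read too: 2 T cell genes at percentiles 48.6 (CD28) and 98.0 (CD3D), 3 erythroid, 3 heterophil and 2 dendritic cell genes, and 1 each for B cells and thrombocytes. The arrays held 13310 to 14361 of 14718 spots. The SD within a clone of these mitochondrial genes had a median of 0.16 on the E. coli 1 h array and 0.17 on the LPS 1 h array. It was 0.41, 0.64 and 0.60 on the later arrays in time order, so spots of a clone lay closer together at 1 h. The range between clones of a gene had a median of 0.38 on the E. coli 1 h array. On the LPS 1 h array it was 0.52, near the 0.54 at 8 h, with a highest range of 2.64.

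**Figure D1:**
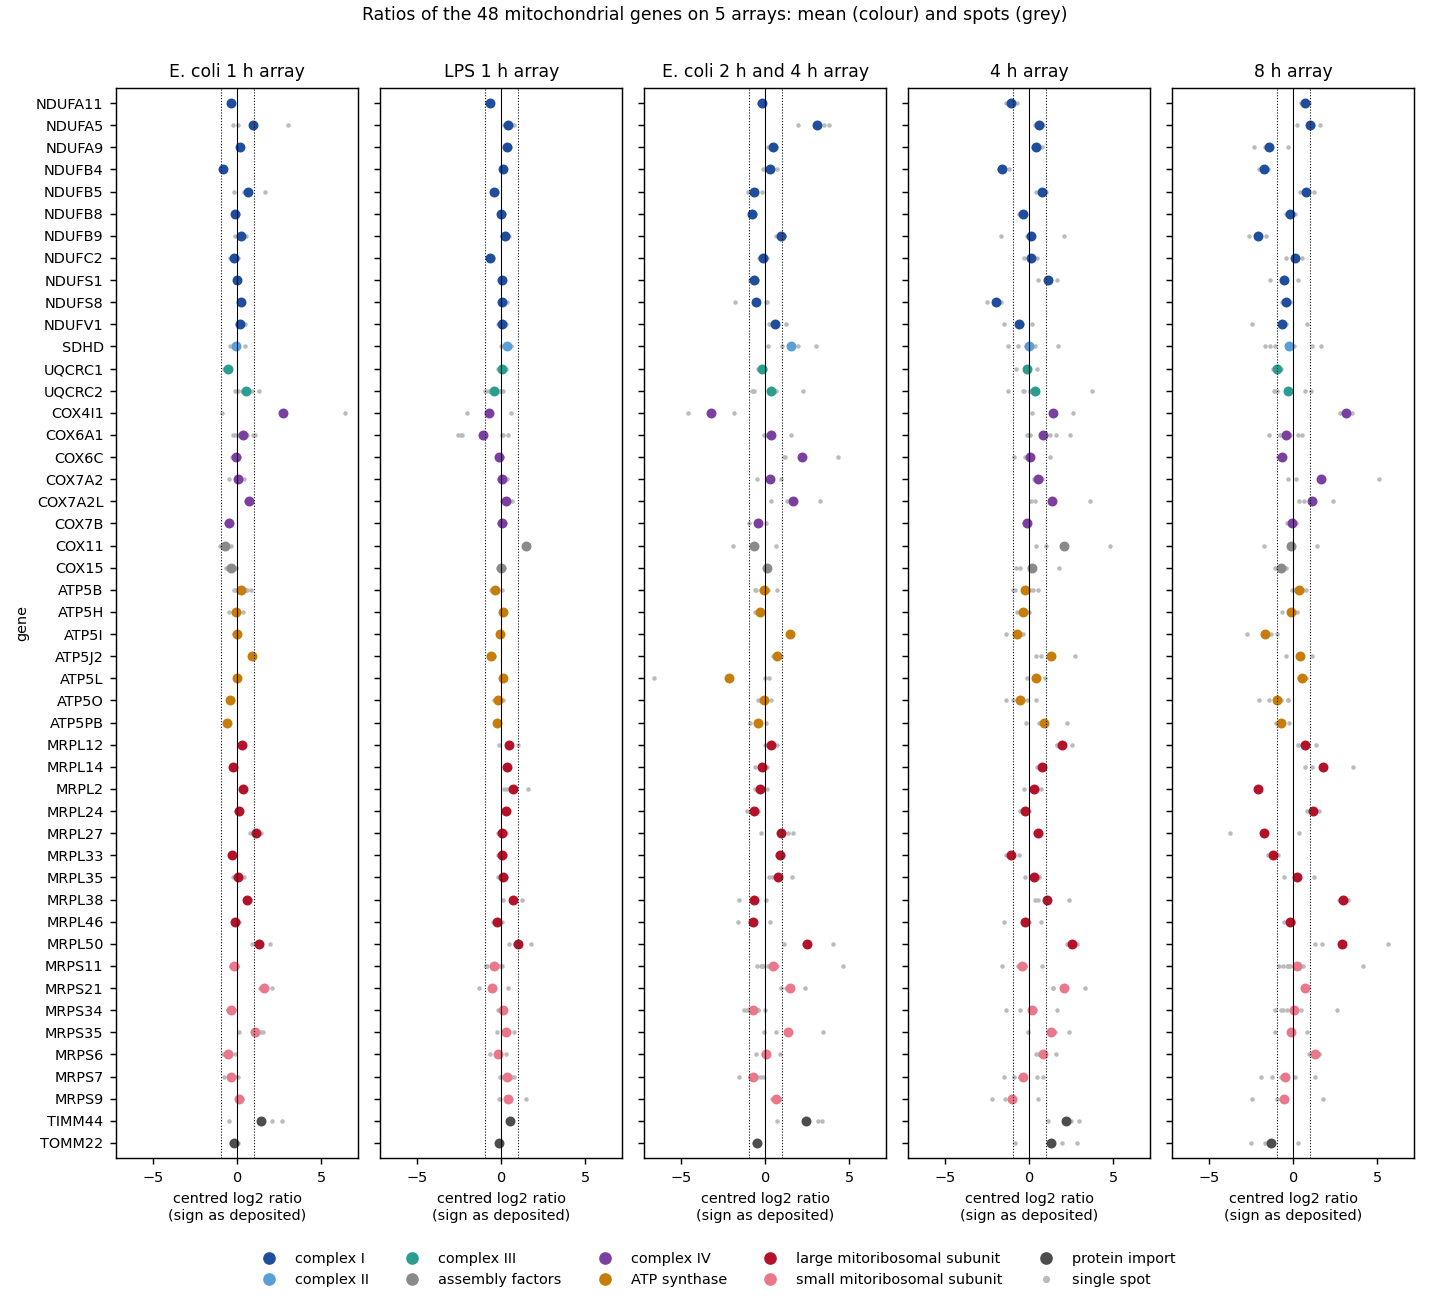
Ratios of the 48 genes on the 5 ratio arrays. The x axis is the centred log2 ratio with the sign as deposited, rows are genes ordered by complex, coloured points are gene means and grey points single spots, and dotted lines mark 2-fold. Most genes lie between the dotted lines on the arrays of 1 h, and COX4I1 and ATP5L have grey spots far from their means.

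At 1 h the mitochondrial genes lay close to the array median after either stimulus. On the E. coli 1 h array 6 of 48 genes (12.5%) were past 2-fold, all positive, where 16.3% of all genes read were past 2-fold in either direction and 14.7% were positive. Genes past 2-fold with every spot of 1 sign were 4 of 48 (8.33%), beside 14.5% of all genes. On the LPS 1 h array 2 of 48 (4.17%) were past 2-fold, 1 in each direction, against 11.2% of all genes, 3.78% positive and 7.37% negative. Only COX11, which had a single spot there, met the condition of 1 sign as well (2.08%, beside 9.46% of all genes). Their medians were -0.0016 and 0.05, beside -0.0065 and 0.05 for all genes. The SD across the 48 genes was 0.68 on the E. coli 1 h array and 0.46 on the LPS 1 h array, and across all genes 0.84 and 0.78. The SD of ratios was thus smaller among the mitochondrial genes than among all genes on both arrays, with no test of the difference. It was larger among them on the E. coli time array, 1.14 beside 0.93, and at 8 h, 1.23 beside 1.13. At 4 h it was 0.99 beside 1.04.

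All 11 genes of complex I, the NADH dehydrogenase, were within 2-fold on both arrays of 1 h. Their ratios ran from -0.84 to 0.94 with E. coli and from -0.71 to 0.40 with LPS. NDUFB4, an accessory subunit, had the lowest ratio on the E. coli 1 h array, -0.84 ± 0.10, with 0.11 ± 0.12 on the LPS 1 h array. NDUFA5, another accessory subunit on a dim clone, had the highest on both, 0.94 ± 1.82 and 0.40 ± 0.30, and on the first of these the SD exceeded the ratio because 1 spot stood at 3.04 and the others at -0.25 and 0.04. NDUFC2 had the lowest ratio on the LPS 1 h array, -0.71 ± 0.17, and NDUFA11 was close to it at -0.70 ± 0.16; both are accessory subunits. The core subunit NDUFS1, which carries iron-sulfur clusters, was near 0 on both, at -0.04 ± 0.06 and 0.01 ± 0.05.

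Complexes II and III and the ATP synthase were also within 2-fold at 1 h. SDHD, a membrane anchor of succinate dehydrogenase and the only complex II gene read, had -0.06 ± 0.30 on the E. coli 1 h array and 0.34 ± 0.19 on the LPS 1 h array. The core proteins of complex III, UQCRC1 and UQCRC2, had -0.58 ± 0.19 and 0.50 ± 0.54 with E. coli, and 0.05 ± 0.23 and -0.45 ± 0.48 with LPS. The 7 ATP synthase genes ran from -0.60 to 0.89 with E. coli and from -0.61 to 0.08 with LPS. ATP5J2, a small membrane subunit, was at the upper end of the first range at 0.89 ± 0.09 and at the lower end of the second at -0.61 ± 0.17. As the stimulated sample changed channel between these arrays, these signs need not mean opposite responses. ATP5PB, of the stalk that holds the catalytic head still, had the lowest ratio with E. coli, -0.60 ± 0.04, and ATP5L, also of the membrane part, the highest with LPS, 0.08 ± 0.11. For ATP5J2 and ATP5PB on the E. coli 1 h array, no spot had the other sign.

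Complex IV, cytochrome c oxidase, had 1 gene past 2-fold on each array of 1 h, COX4I1 and COX6A1. COX4I1, the largest of its nuclear-encoded subunits, had 2.74 ± 5.15 on the E. coli 1 h array from spots of 6.38 and -0.90, with 1 spot not read. These spots have opposite signs, so no ratio can be given for COX4I1 on that array beyond the spread. COX6A1, a small subunit, was the only negative gene past 2-fold on the LPS 1 h array, at -1.12 ± 1.45 over 6 spots of 2 clones. The first clone's spots read -2.56, -2.43 and -2.34, a mean of -2.44 ± 0.11, and the second clone's 0.12, 0.06 and 0.41, a mean of 0.20 ± 0.18. The clones thus disagree by 2.64 with no overlap of their spots. They differed on the E. coli 1 h array too, at 0.86 ± 0.25 and -0.14 ± 0.16, and in brightness at LPS 2 h, at 5.27 ± 0.50 and 0.61 ± 0.12. Of the remaining complex IV genes, COX7B had the lowest ratio with E. coli, -0.50 ± 0.14, and COX7A2L, which joins complexes into supercomplexes, had 0.67 ± 0.13 there and the highest with LPS, 0.28 ± 0.29.

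COX11, which delivers copper to complex IV, was the positive gene past 2-fold on the LPS 1 h array, at 1.45 on the only spot read. It had -0.71 ± 0.48 on the E. coli 1 h array. COX15, an enzyme of haem A synthesis, had -0.37 ± 0.29 and -0.0017 ± 0.19.

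Among the 17 mitoribosomal genes, 4 (23.5%) were positive past 2-fold with E. coli at 1 h, beside 14.7% of all genes. With LPS 0 were past it in either direction, beside 3.78% of all genes positive and 7.37% negative. The list's medians were 0.11 and 0.27. MRPS21 had 1.61 ± 0.40 with spots of 1.45, 2.06 and 1.32, MRPL50 1.31 ± 0.55 with spots of 1.94, 0.88 and 1.12, and MRPL27 1.09 ± 0.35 with spots of 1.42, 0.73 and 1.12. MRPS35 had 1.02 ± 0.78, and one of its spots had a brightness below 0 at LPS 2 h. No spot of these genes was negative on the E. coli 1 h array. All 4 lay in the dimmest 25% of genes, at brightness percentiles of 19.3, 4.53, 17.1 and 1.82. TIMM44, which tethers the import motor to the inner membrane channel, was the remaining positive gene, at 1.40 ± 1.67 and percentile 7.50. The lowest mitoribosomal ratios were those of MRPS6, -0.55 ± 0.38 with E. coli, and MRPS21, -0.53 ± 0.85 with LPS, and the highest with LPS was 0.99 ± 0.67 for MRPL50. In the large subunit the lowest were MRPL33 at -0.33 ± 0.13 with E. coli and MRPL46 at -0.29 ± 0.26 with LPS, and in the small subunit the highest with LPS was MRPS9 at 0.42 ± 0.88. TOMM22, an outer membrane import receptor, had -0.22 ± 0.22 and -0.14 ± 0.04, against 0.50 ± 0.08 for TIMM44 on the LPS 1 h array.

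The position of a gene on the brightness scale went with its ratio, among the mitochondrial genes as among all genes. On the E. coli 1 h array 5 of the 12 mitochondrial genes in the dimmest 25% were past 2-fold (41.7%), beside 40.7% of all genes in that class. In the middle 50% it was 1 of 26 (3.85%), beside 8.36%, and in the brightest 25% 0 of 10, beside 7.62%. The medians of the dimmest mitochondrial genes were 0.77, 0.33, 0.93, 0.94 and 0.24 on the arrays in the order given above, against 0.62, 0.27, 0.55, 0.80 and 0.54 for all genes of that class, so they were above it on 4 arrays and below it at 8 h. With the trend of ratio on brightness removed, MRPS21 at 1.18 was the only mitoribosomal gene past 2-fold at 1 h of E. coli, and MRPL27, MRPL50 and MRPS35 had 0.62, 0.59 and 0.26. TIMM44 was then at 0.72, while ATP5J2 at 1.08 and COX11 at -1.46 were past 2-fold. Spots also differed by their set: in each array the first of the 3 spots of a clone tended to be lowest, and it was below the last in 36 of 54 mitochondrial clones on the E. coli 1 h array (66.7%) and in 40 of 47 at 8 h (85.1%), beside 74.8% and 87.4% of all clones. Of the bright genes NDUFA9 and NDUFV1, 1 spot each sets the class: their LPS 2 h spots read 0.38, 5.13 and 0.18, and 0.37, 0.43 and 10.3.

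**Figure D2:**
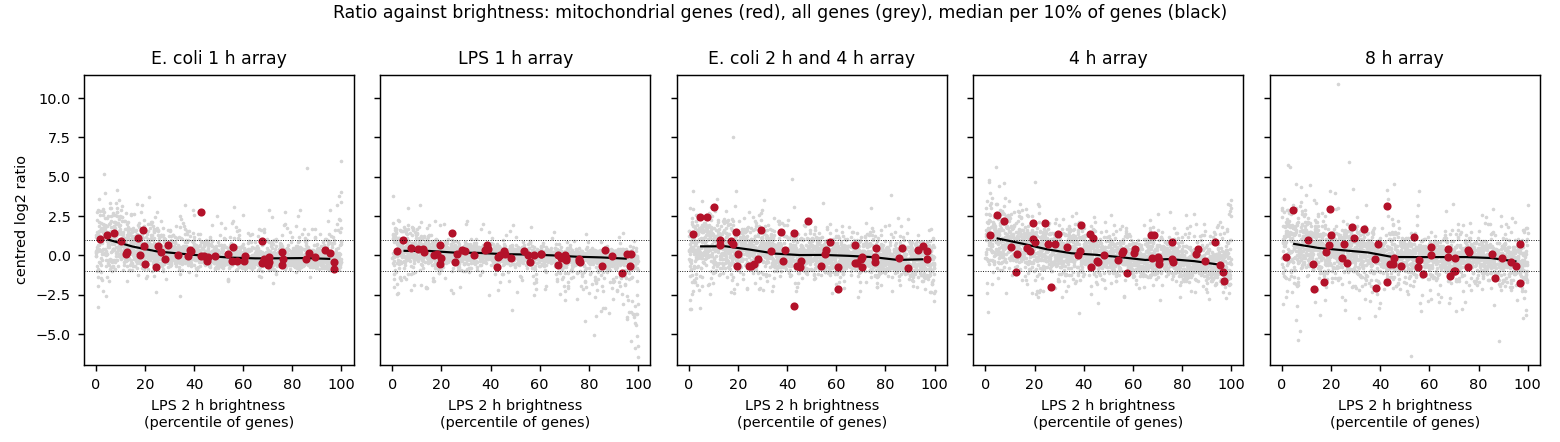
Centred log2 ratio on the y axis against the percentile of LPS 2 h brightness on the x axis, 1 panel per ratio array, with mitochondrial genes in red, all genes in grey and the median of each 10% of genes as a black line. The black line falls from dim to bright genes on every panel, and the red points scatter around it.

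**Figure D3:**
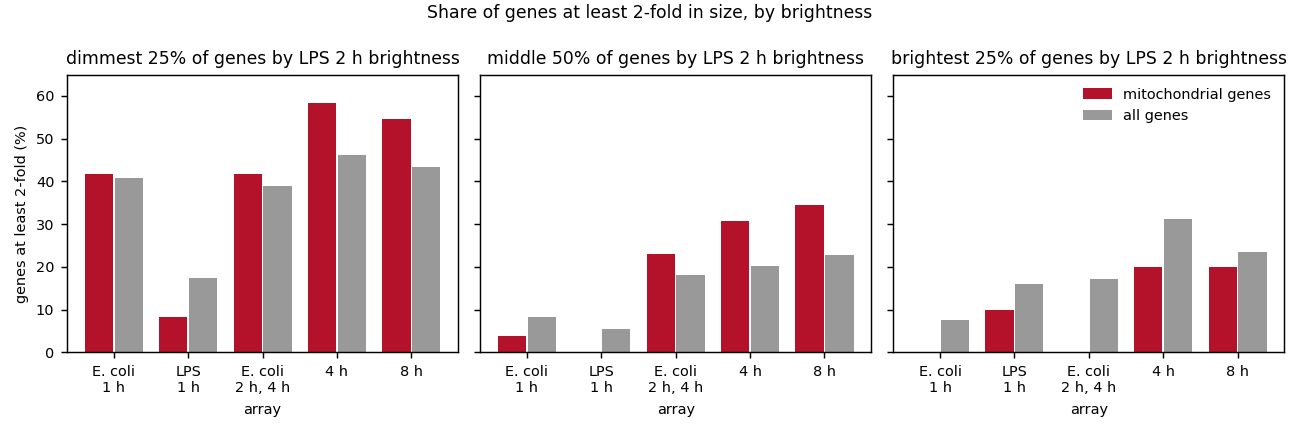
Percentage of genes at least 2-fold in size on each array, for the dimmest 25%, middle 50% and brightest 25% of genes by LPS 2 h brightness, with mitochondrial genes in red and all genes in grey. The dimmest class holds 12 mitochondrial genes, 11 of them read on the 8 h array, and has the highest red bar on the E. coli 1 h array, 41.7%.

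On the E. coli time array, which sets 2 h against 4 h of E. coli, 11 of 48 genes (22.9%) were past 2-fold, 9 positive and 2 negative, where 23.1% of all genes were, 14.8% positive and 8.3% negative. The share was thus that of the array as a whole, and the median was 0.07, beside 0.04 for all genes. Without centring 16 genes were positive past 2-fold and the median was 0.57, since the array's own median was 0.49. In either direction 37.5% of the 48 were then past 2-fold, beside 31.8% of all genes. The positive genes came from complexes I, II and IV, the ATP synthase, the mitoribosome and the import machinery. Genes past 2-fold in either direction with every spot of 1 sign were 9 of 48 (18.8%), beside 19.7% of all genes. They include the negative COX4I1 and leave out the positive MRPS35.

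SDHD and ATP5I were the positive genes on the E. coli time array that did not lie in the dimmest 25% and had support from several clones or from close spots. Both clones of SDHD were positive there, with means of 1.55 ± 1.43 and 1.47 ± 0.48, which gave 1.51 ± 0.95 over 6 spots. ATP5I, a small membrane subunit of the ATP synthase, had spots of 1.45, 1.41 and 1.48, a mean of 1.44 ± 0.04. The other ATP synthase gene past 2-fold, ATP5L, rested on 1 spot: its spots read 0.23, -6.62 and -0.01, a mean of -2.14 ± 3.89, and their median was -0.01. COX6C, a small subunit of complex IV, had 2.19 ± 1.84 with spots of 1.09, 4.31 and 1.17, and COX7A2L 1.63 ± 1.47 with spots of 0.36, 3.25 and 1.29. For COX4I1 the spots read were -1.84 and -4.60, a mean of -3.22 ± 1.95. This was the lowest ratio of the 48 genes on that array.

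NDUFA5 had the highest ratio of the 48 genes on the E. coli time array, 3.07 ± 1.00, with spots of 1.92, 3.79 and 3.49. The remaining complex I genes lay between -0.81 ± 0.17, for the accessory subunit NDUFB8, and 0.95 ± 0.27, for NDUFB9. The other positive genes were MRPL50 at 2.47 ± 1.45, TIMM44 at 2.41 ± 1.48, MRPS21 at 1.49 ± 0.76 and MRPS35 at 1.33 ± 1.85. NDUFA5 and these 4 were in the dimmest 25%. With the trend on brightness removed NDUFA5 had 2.50, MRPL50 1.83, TIMM44 1.80 and MRPS21 1.05, while MRPS35 had 0.66. COX11 at -1.32 and MRPL38 at -1.13 were then past 2-fold. The lowest ratios among mitoribosomal genes, -0.73 ± 0.96 for MRPL46 and -0.71 ± 0.57 for MRPS7, were within 2-fold. UQCRC1 and UQCRC2 had -0.22 ± 0.22 and 0.34 ± 1.32, COX11 and COX15 -0.66 ± 1.82 and 0.08 ± 0.11, and TOMM22 -0.49 ± 0.17.

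At 4 h, with E. coli set against LPS, 17 of 48 genes (35.4%) were past 2-fold, 12 positive and 5 negative, where 29.4% of all genes were, 17.7% positive and 11.7% negative. The median of 0.29 stood beside 0.0029 for all genes. With the arrays scaled to 1 spread 7 of 48 (14.6%) were past 2-fold, beside 14% of all genes. Those with every spot of 1 sign were 14 of 48 (29.2%), beside 24.1% of all genes, and among genes past 2-fold the share was 82.4% for the mitochondrial genes and 82% for all. Complex I held 3 of the negative genes and 1 of the positive ones. On this array 9 of the 11 macrophage markers were negative past 2-fold, beside 11.7% of all genes, with a median of -1.16 and a range of -2.35 to 0.32. After removal of the trend on brightness 4 of the 11 were, beside 225 of the 2248 genes read. The T cell genes read had opposite signs, -2.70 ± 0.75 for CD3D and 2.10 ± 2.49 for CD28, and 2 of 3 erythroid genes were positive past 2-fold, CA2 at 1.35 ± 0.92 and HBBA at 1.79 ± 1.15. The part of these markers in the ratios was not tested.

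NDUFB4 and NDUFA11, both bright, and NDUFS8 were the negative genes of complex I at 4 h. NDUFB4 had spots of -1.80, -1.82 and -1.22, a mean of -1.61 ± 0.34, and NDUFA11 -1.39, -1.08 and -0.73, a mean of -1.06 ± 0.33. NDUFS8, a core subunit with iron-sulfur clusters, had -1.70, -2.49 and -1.81, a mean of -2.00 ± 0.43, the lowest of the 48 genes on that array. All 9 spots of these genes were negative. With the trend on brightness removed NDUFS8 had -2.38, while NDUFB4 at -0.87 and NDUFA11 at -0.33 were within 2-fold. NDUFS1 was positive, at 1.10 ± 0.56 with spots of 0.53, 1.13 and 1.65. The core subunits NDUFS1 and NDUFS8 thus had opposite signs on the 4 h array, and their spots did not overlap.

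Outside complex I, 11 genes were positive and 2 negative at 4 h. MRPL12, a protein of the stalk of the large mitoribosomal subunit, had 1.93 ± 0.52 with spots of 2.53, 1.64 and 1.62, and was of middling brightness, at percentile 38.9. MRPL33, also of the large subunit, was negative at -1.09 ± 0.40, with spots of -1.41, -1.22 and -0.65. The other mitoribosomal genes past 2-fold lay in the dimmest 25%: MRPL50 at 2.54 ± 0.44, MRPS21 at 2.04 ± 1.12, MRPS35 at 1.28 ± 1.24, MRPL38 at 1.06 ± 1.13 and MRPS9 at -1.04 ± 1.40. MRPL50 had the highest ratio of the 48 genes. COX11 had 2.07 ± 2.39, COX4I1 1.39 ± 1.73, COX7A2L 1.34 ± 1.97 and TOMM22 1.31 ± 1.90, each with an SD above its ratio. ATP5J2 had 1.27 ± 1.27, and TIMM44 2.17 ± 0.96. The lowest ATP synthase ratio was -0.75 ± 0.57 for ATP5I and the lowest of complex IV -0.14 ± 0.14 for COX7B, both within 2-fold. Once the brightness trend was removed COX4I1 had 0.49, MRPL38 0.43 and MRPS35 0.16, within 2-fold. COX6A1 at 1.30 and ATP5PB at 1.25 were then past it. SDHD had -0.0048 ± 1.00, UQCRC1 -0.13 ± 0.64, UQCRC2 0.31 ± 1.74 and COX15 0.13 ± 1.43.

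At 8 h, with the same stimuli set against each other, 17 of the 47 genes read (36.2%) were past 2-fold, 9 positive and 8 negative, where 27.9% of all genes were, 15% positive and 12.9% negative. The median was -0.16, beside 0.0064 for all genes, and the import gene TIMM44 was not read. Those with spots of 1 sign, MRPL2 with its single spot included, were 14 of 47 (29.8%), beside 22.1% of all genes. Of the large mitoribosomal subunit 7 of 10 genes were past 2-fold, 4 positive and 3 negative, so its genes went in both directions. Macrophage markers were again negative, 8 of 11 past 2-fold, beside 12.9% of all genes. Their median was -1.63 and their range -2.26 to 0.28. With the trend on brightness removed 7 of the 11 were negative past 2-fold, beside 321 of the 2220 genes read. CD3D had -4.01 ± 0.76 and CD28 -0.49 ± 1.54, and no erythroid gene was counted past 2-fold. The part of these markers was not tested.

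NDUFB4 was negative at 8 h as at 4 h, with spots of -2.05, -1.66 and -1.49 and a mean of -1.73 ± 0.29, and it had -1.33 with the trend on brightness removed. MRPL33 was negative on both arrays as well, with 8 h spots of -1.54, -1.19 and -0.92 and a mean of -1.22 ± 0.31. The arrays of 4 h and 8 h share no RNA sample, and NDUFB4 and MRPL33 were the genes of the 48 that were negative past 2-fold on both with every spot negative. With the trend on brightness removed neither was past 2-fold at 4 h, at -0.87 for NDUFB4 and -0.89 for MRPL33, while MRPL33 had -1.11 at 8 h. NDUFA11 had 0.69 ± 0.25 at 8 h, against -1.06 at 4 h. NDUFB9 had -2.12 ± 0.73 on 2 spots, the lowest of the 48 genes, and NDUFA9 -1.45 ± 1.05, while NDUFA5 was just past 2-fold at 1.00 ± 0.69. ATP5I had -1.69 ± 0.94, with spots of -2.76, -1.31 and -0.99.

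COX4I1 had the highest ratio of the 48 genes at 8 h, 3.13 ± 0.52, on 2 spots that were both positive. In complex IV, COX7A2 had 1.65 ± 3.01, which rested on a spot of 5.12 beside -0.34 and 0.18, and COX7A2L had 1.11 ± 1.10. The lowest of complex IV, COX6C at -0.67 ± 0.20, was within 2-fold. In the mitoribosome MRPL38 had 2.97 ± 0.38 on 2 spots, MRPL50 2.89 ± 2.40, MRPL14 1.78 ± 1.56 and MRPS6 1.31 ± 0.32. MRPL24 had 1.14 ± 0.34, with a lowest spot of 0.83 and a brightness percentile of 53.8. MRPL2 had -2.08 on 1 spot, and MRPL27 -1.72 ± 2.91 on spots of 0.33 and -3.78. In the small subunit the lowest ratio was -0.56 ± 2.14 for MRPS9. TOMM22 was negative at -1.31 ± 1.41. Removal of the brightness trend left MRPS6 at 0.87, COX7A2L at 0.85 and NDUFA5 at 0.37, within 2-fold, and put NDUFA11 at 1.09 and MRPS9 at -1.16, past it. SDHD had -0.23 ± 1.37, UQCRC1 -0.97 ± 0.23, UQCRC2 -0.30 ± 0.96, COX11 -0.15 ± 2.22, COX15 -0.72 ± 0.34 and ATP5L 0.51 ± 0.23, the highest of its complex.

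Over the 5 arrays, 17 of the 48 genes (35.4%) were never past 2-fold, beside 40.6% of all genes. Past it on 1 array were 17 (35.4%), beside 29.5% of all genes. Those never past it included 4 of the 7 ATP synthase genes, ATP5B, the catalytic subunit, ATP5H, ATP5O and ATP5PB, and both complex III genes. The shares past it on 3 and on 4 arrays, 8.33% and 4.17%, were near the 8.66% and 3.91% of all genes. The 6 genes past 2-fold on 3 or 4 arrays were COX4I1, MRPL50, COX7A2L, MRPS21, MRPS35 and TIMM44. Of these MRPL50, MRPS21, MRPS35 and TIMM44 were in the dimmest 25%, and each of their ratios past 2-fold was positive. Their spots shared 1 sign on all such arrays for MRPL50 and MRPS21, on 2 of 3 for TIMM44 and on 1 of 3 for MRPS35. The arrays pair different samples with the numerator not stated, so equal signs across them need not mean the same direction of change. COX4I1 had 3 positive ratios and 1 negative, on spots of LPS 2 h brightness 0.17, 1.00 and 0.04.

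Of the 48 genes, 8 had several clones, which allowed a check within a gene. The distance between the highest and lowest clone mean had a median of 0.38 on the E. coli 1 h array, 0.52 on the LPS 1 h array, 0.58 on the E. coli time array, 0.87 at 4 h and 0.54 at 8 h. The largest distances were those of COX6A1 on the LPS 1 h array, 2.64, of SDHD at 8 h, 2.30 (-1.38 ± 0.29 and 0.92 ± 0.82), and of UQCRC2 on the E. coli time array, 2.18 (-0.75 ± 0.06 and 1.43 ± 1.13). The 3 clones of MRPS11 were closest on the E. coli 1 h array, at -0.16 ± 0.11, -0.32 ± 0.10 and -0.19 ± 0.16. On the LPS 1 h array its first and second clones had -0.20 ± 0.08 and -0.18 ± 0.17 and its last -0.89 ± 0.03. At 1 h of E. coli ATP5B had 0.62 ± 0.16 and -0.15 ± 0.05, and ATP5O -0.30 ± 0.05 and -0.53 ± 0.03. For MRPS34 the clones had -0.20 ± 0.02 and -0.54 ± 0.06 there, and for MRPS7 -0.39 ± 0.08 and -0.33 ± 0.44. All clones of a gene shared 1 sign for 5 of the 8 genes on the E. coli 1 h array and 6 on the LPS 1 h array. They did so for 4 on the E. coli time array, 3 at 4 h and 5 at 8 h.

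**Figure D4:**
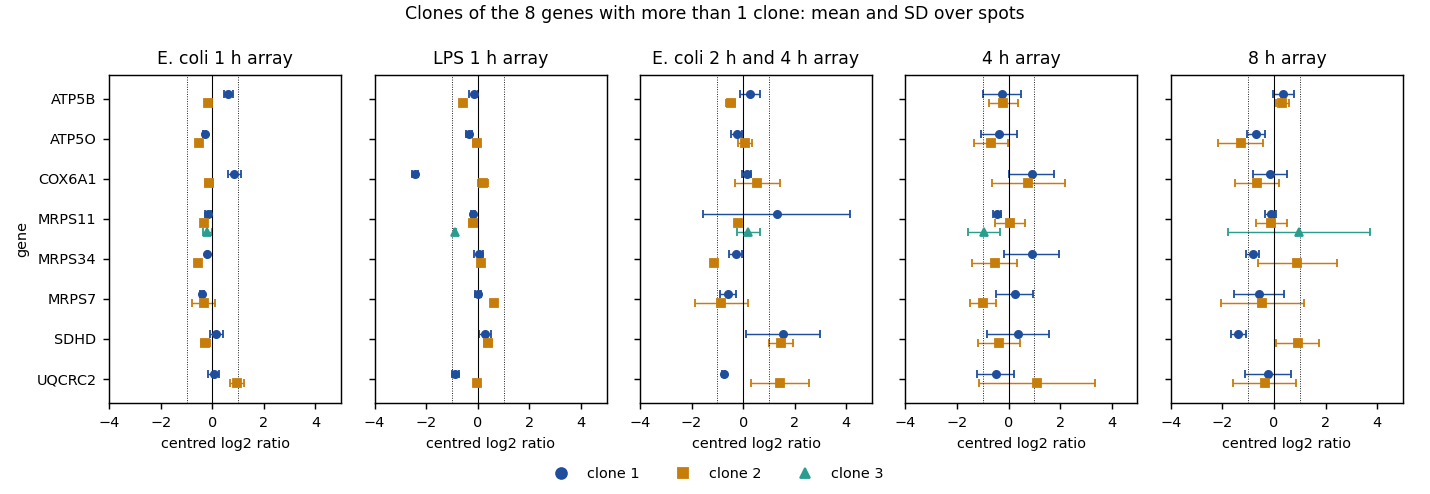
Clone means of the 8 genes with more than 1 clone on the 5 ratio arrays. The x axis is the centred log2 ratio, bars are the SD over up to 3 spots, and symbols tell the clones of a gene apart. The clones of COX6A1 stand 2.64 apart on the LPS 1 h array.

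In the order of protein-coding genes of the RefSeq annotation, ATP5O and MRPS6 are neighbours, and so are MRPL46 and MRPS11. On the E. coli 1 h array ATP5O and MRPS6 had -0.41 ± 0.13 and -0.55 ± 0.38, and MRPL46 and MRPS11 -0.13 ± 0.18 and -0.22 ± 0.13. On the 8 h array ATP5O and MRPS6 had -0.99 ± 0.67 and 1.31 ± 0.32, with opposite signs, and MRPL46 and MRPS11 had -0.19 ± 0.30 and 0.25 ± 1.51. The last value rests on 1 spot of 4.14, and the median of the 9 spots of MRPS11 was -0.29.

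Other nuclear genes of mitochondria, from 7 lists chosen by function, were read for 37 genes, with the cytosolic enzyme MDH1 counted among them. Past 2-fold were 6 of 37 (16.2%) at 1 h of E. coli, on the LPS 1 h array 3 (8.11%), on the E. coli time array 8 (21.6%), at 4 h 17 (45.9%) and at 8 h 9 of 36 (25%), beside 16.3%, 11.2%, 23.1%, 29.4% and 27.9% of all genes. With the trend on brightness removed fewer of the 37 were past 2-fold at 4 h, where 21.4% of all genes were. On the E. coli 1 h array 14.7% of all genes were positive past 2-fold and 1.51% negative. Among the 11 genes read of the tricarboxylic acid cycle list, which also holds regulators and MDH1, none was negative and 4 were positive. These were DLST, a subunit of the 2-oxoglutarate dehydrogenase complex, at 1.51 ± 0.13, ACOD1, which makes itaconate, at 1.61 ± 1.09, DLD, shared by several dehydrogenase complexes, at 1.63 ± 0.97, and IDH3A, a subunit of isocitrate dehydrogenase, at 1.34 ± 0.84. The 12 spots of ACOD1 did not share 1 sign, and IDH3A had 0.96 with the trend on brightness removed. On the LPS 1 h array DLST had -1.99 ± 0.20 and ACOD1 -4.32 ± 2.19, with no positive gene. The unstimulated sample is on both arrays, in channel 2 on the E. coli 1 h array and in channel 1 on the LPS 1 h array. The opposite signs therefore need not mean opposite responses.

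At 4 h, 5 of the 11 genes of the tricarboxylic acid cycle list were negative past 2-fold and none positive, where 11.7% of all genes were negative. The negative genes included MDH2, the malate dehydrogenase of the matrix, at -1.26 ± 0.19, and MDH1, that of the cytosol, at -1.64 ± 1.02. SUCLG1, of succinyl-CoA ligase, had -1.16 ± 0.79. Without the brightness trend 2 of the 11, MDH1 and SUCLG1, were negative past 2-fold and 1, ACOD1 at 1.56, was positive, and MDH2 had -0.96. Of all 2248 genes read, 225 were then negative and 257 positive. Of 8 mitochondrial chaperones and proteases read at 4 h, 2 were negative past 2-fold and 2 positive. HSPA9, the chaperone of the import motor that TIMM44 tethers, had -1.61 ± 0.51. HSPD1, a matrix chaperonin, had -1.48 ± 1.07, with spots of both signs. The positive genes were CLPX at 1.17 ± 0.56 and SPG7 at 1.17 on 1 spot. SOD2, the superoxide dismutase of the matrix, had 1.18 ± 0.64 at 4 h and 0.83 ± 0.09 on the E. coli 1 h array. Transcription factors of nuclear mitochondrial genes, and TFAM beside them, were read as well. GABPA, an ETS factor, had 1.06 ± 0.87 at 4 h and -1.93 ± 0.26 on 2 spots at 8 h, and was within 2-fold on the other arrays, while NRF1, on a dim clone, and TFAM, which packages mitochondrial DNA, were within 2-fold on all 5. Among carriers and porins SLC25A3, the phosphate carrier, had 1.51 ± 1.15 on the E. coli time array, -1.27 ± 0.91 at 4 h and -1.06 ± 0.12 at 8 h. Its negative values were within 2-fold, at -0.97 and -0.91, without the brightness trend.

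The cytosolic ribosome, chosen after its values were seen, stands beside the mitoribosome for comparison. Of 55 genes of cytosolic ribosomal proteins, the share past 2-fold was 3.64%, 1.82%, 7.27%, 12.7% and 7.27% on the arrays in order, against 23.5%, 0%, 17.6%, 41.2% and 47.1% of the 17 mitoribosomal genes. The mitoribosomal share was the lower one on the LPS 1 h array and the higher one on the others. Of all genes 16.3%, 11.2%, 23.1%, 29.4% and 27.9% were past 2-fold, so the cytosolic share was below that of all genes on every array. The mitoribosomal share was below it on the LPS 1 h and E. coli time arrays and above it on the others. The SD across genes at 8 h was 0.50 for the cytosolic and 1.42 for the mitochondrial ribosome. Of the 17 mitoribosomal genes 8 lay in the dimmest 25% of genes. With the trend on brightness removed the cytosolic shares were 1.82%, 1.82%, 5.45%, 18.2% and 12.7%. The mitoribosomal shares were then 5.88%, 0%, 17.6%, 23.5% and 47.1%, and those of all genes 13.7%, 10.4%, 20%, 21.4% and 25.6%. Dim genes were still past 2-fold more often at 8 h, with 36.6% of all genes in the dimmest 25% beside 20.1% in the brightest 25%. None of these shares was tested.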

How the data were processed

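Total RNA from chicken macrophages was hybridised to arrays, per the labels. The deposited values of 5 arrays are log2 ratios of the paired channels, with base 2 assumed; the deposited LPS 2 h array holds a 1-channel intensity. The sources used here do not state the dyes, numerator, background correction or normalization of the authors, so signs are as deposited. For E. coli 1 h the title lists its samples in the opposite order to the channels.

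Each ratio array was centred on its median. The 3 spots of each of 4906 clones (identifiers a fixed step apart, with 1 accession wherever named) were averaged, then the clones of a gene. Of 14718 spots, 9066 had 1 gene in the platform annotation of 2007, 3 had several and 5649 were unnamed. Symbols were updated through RefSeq (GRCg7b), which matched 47 of the 48 identifiers; ATP5L kept its older symbol. RefSeq gave names and gene order, with chromosome and start position used only to set that order. Promoter motifs and protein sequences were not analysed here.

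With 1 array per pair no test was made. Members named are those at least 2-fold in size on an array, the highest and lowest of each role, and those with several clones. Of other mitochondrial lists, some but not all of the genes at least 2-fold in size are named. The genes left out include SLC25A4, VDAC1, VDAC2, IDH2, IDH3B and YME1L1. TFAM, NRF1 and values within 2-fold were added after being seen. The members and lists were chosen with earlier results of these data known. The trend of ratio on LPS 2 h brightness was removed with lowess (fraction 0.3) as an alternative; others were no centring, spot medians, dim genes left out, scaled arrays, a 1.5-fold threshold and genes with spots of 1 sign. Steps were tested on simulated data. Python 3.11.15, numpy 2.4.6, pandas 2.3.3, statsmodels 0.14.6 and matplotlib 3.10.9 were used.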

Additional observations from a re-analysis of the deposited data

How the results depend on the processing

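Counts of mitochondrial genes past 2-fold depended on the processing as follows, and where a count changed the cause was not tested. At a 1.5-fold threshold 14 genes passed on the E. coli 1 h array in place of 6, 9 on the LPS 1 h array in place of 2, 26 on the E. coli time array in place of 11 and 27 at 8 h in place of 17. These were 29.2%, 18.8%, 54.2% and 57.4% of the genes read, beside 32.3%, 22.3%, 46% and 50.1% of all genes. At 4 h 24 genes passed the 1.5-fold threshold in place of 17, or 50%, beside 51.5% of all genes. Without centring, the LPS 1 h array had 2 positive and 0 negative genes and a median of 0.34, and the E. coli time array 16 positive genes and a median of 0.57. Past 2-fold in either direction were then 4.17% and 37.5%, beside 12.6% and 31.8% of all genes. With the trend on brightness removed, the E. coli 1 h array had 3 positive genes and 1 negative, the E. coli time array 4 negative and the 4 h array 2 negative. The shares in either direction were 8.33%, 25% and 27.1%, beside 13.7%, 20% and 21.4% of all genes. With the dimmest 25% of genes left out, positive genes numbered 1 on the E. coli 1 h array and 0 on the LPS 1 h array. They numbered 4 on the E. coli time array, 6 at 4 h and 5 at 8 h. Of the 6 positive genes found at 1 h of E. coli with no gene left out, 5 lay in this dim class. In either direction the shares were 2.78%, 2.78%, 16.7%, 27.8% and 30.6%, beside 8.11%, 9.11%, 17.8%, 23.8% and 23% of all remaining genes. With arrays scaled to 1 spread, the E. coli 1 h array had 1 negative gene, the LPS 1 h array 4 positive and 5 negative, and the 4 h array 5 positive and 2 negative. Shares past 2-fold were then 18.8%, 18.8% and 14.6%, beside 23.5%, 24.4% and 14% of all genes. With medians over spots the E. coli time array had 1 negative gene, and 22.9% were past 2-fold in either direction, beside 21.9% of all genes. The 4 h array then had 13 genes past 2-fold in either direction (27.1%), below the 30.3% of all genes. Counting only genes with spots of 1 sign left 1 on the LPS 1 h array (2.08%, beside 9.46% of all genes). Of 53 ratios past 2-fold, 39 stayed past it with the trend removed, 41 with scaled arrays, 45 with spot medians, 50 without centring and 52 with each spot set centred on its own median, an alternative chosen after seeing the data. No paired analysis was possible because each pair of RNA samples had 1 array. Signal over background may limit the 12 genes of the dimmest 25%, a class set by LPS 2 h brightness alone. Brightness and background on the ratio arrays themselves were not examined here.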

Other observations

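The clone next to that of NDUFB4 in identifier order carries CD74, the invariant chain of MHC class II, which was noticed after the values were seen. CD74 had -1.84 ± 0.38 at 4 h and -1.44 ± 0.31 at 8 h, beside -1.61 ± 0.34 and -1.73 ± 0.29 for NDUFB4. On the E. coli 1 h array CD74 had -0.53 ± 0.12 and NDUFB4 -0.84 ± 0.10. The sources used here do not say whether neighbouring identifiers are neighbouring spots on the slide, and a shared cause was not tested.

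Genes of fatty acid oxidation, the pathway that feeds electrons to the chain through acyl-CoA dehydrogenases, were read for 4 genes. CPT2, which frees acyl-CoA in the matrix, had 1.33 ± 0.48 at 4 h and 2.50 ± 0.33 at 8 h, with every spot positive on both arrays. ETFA, which carries electrons from acyl-CoA dehydrogenases towards the chain, had 2.47 ± 2.45 at 4 h and -0.23 ± 0.24 at 8 h. ACADS, a short-chain acyl-CoA dehydrogenase, had 1.47 ± 0.78 on the E. coli 1 h array and 1.46 ± 0.81 on the E. coli time array. HADHA, of the trifunctional enzyme, was within 2-fold on all 5 arrays. CPT2 and ACADS lay in the dimmest 25% of genes, at percentiles 17.5 and 5.4. With the trend on brightness removed CPT2 had 0.68 at 4 h and 2.00 at 8 h, and ACADS 0.76 and 0.83 on the arrays named and -1.55 at 4 h.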
